A study of Rattus norvegicus with 24 samples.

Results

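The Reg lectins are small secreted proteins built around a C-type lectin fold. The 5 rat genes described here, Reg3b, Reg3g, Reg3a, Reg1a and Reg4, were found as the gene probes whose name or accession in the array design belongs to one of them. Each gene had 1 probe, so 5 of the 41012 gene probes on the array were members. Reg3b stood in the design under its older name Pap, for pancreatitis-associated protein, and Reg1a under Reg1. The measurements came from male rats of strain (ACIxF344)F1-Pirc, genotype Apc-Pirc/+, which inherit 1 mutated allele of Apc, a tumour suppressor, and develop tumours of the colon. There were 4 groups of 5 rats, all taken at 97 days of age: colonic tumours of DSS rats, normal distal colon of the same DSS rats, colonic tumours of untreated rats, and normal distal colon of the same untreated rats. DSS rats (1, 5, 6, 7 and 9) were given dextran sodium sulfate (DSS, which injures the colon's epithelium; 4% in drinking water, molecular weight 500000) during days 40 to 47 and again during days 54 to 61, and untreated rats (2, 3, 4, 8 and 10) were not. Every sample was labelled with Cy3 and hybridized against the same kind of reference, pooled colon RNA of rats with wild-type Apc and a range of ages carrying Cy5, so each level below is log2 of the sample over that pool. All 20 samples thus carried the Apc mutation and none was wild type, and the pool gives the only wild-type level.

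In the gut, Reg3b and Reg3g are made by epithelial cells and released into the lumen. Mouse Reg3g kills Gram-positive bacteria and helps keep them away from the lining, and both genes are induced by bacterial colonization and by the cytokine IL-22 acting through the transcription factor STAT3. Reg3a is a further member of the group, and Reg1a, also called lithostathine or pancreatic stone protein, is best known as a secreted product of the exocrine pancreas. Reg4 is made constitutively in the colon, where in mice it marks deep crypt secretory cells and a class of enteroendocrine cells. Extl3 has been proposed as a receptor for Reg proteins.

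Reg3b, Reg3a, Reg1a and Reg3g lie next to each other on chromosome 4 in the RefSeq annotation of GRCr8, with the pseudogene Reg3b-ps1 between Reg3b and Reg3a and a long noncoding RNA between Reg1a and Reg3g; Reg4 lies on chromosome 2. The promoters of Reg3b and Reg3g are shown because these 2 genes moved together in 1 tumour and each is a known STAT3-linked gene. They are taken from RefSeq with build GRCr8, run 5′ to 3′ on the gene's strand over 300 bases around the annotated start, and carry in capitals the matches to 2 motifs searched on both strands: the STAT motif TTCNNNGAA and the TATA motif TATAAA, which do not overlap here.
Reg3b promoter, chr4:112419526-112419825, plus strand: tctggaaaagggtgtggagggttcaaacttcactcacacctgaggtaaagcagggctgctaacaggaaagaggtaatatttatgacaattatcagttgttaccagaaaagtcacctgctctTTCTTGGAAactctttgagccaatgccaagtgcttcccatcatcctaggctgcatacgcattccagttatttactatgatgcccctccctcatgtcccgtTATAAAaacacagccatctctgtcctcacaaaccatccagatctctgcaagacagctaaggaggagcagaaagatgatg
Reg3g promoter, chr4:112484689-112484988, minus strand: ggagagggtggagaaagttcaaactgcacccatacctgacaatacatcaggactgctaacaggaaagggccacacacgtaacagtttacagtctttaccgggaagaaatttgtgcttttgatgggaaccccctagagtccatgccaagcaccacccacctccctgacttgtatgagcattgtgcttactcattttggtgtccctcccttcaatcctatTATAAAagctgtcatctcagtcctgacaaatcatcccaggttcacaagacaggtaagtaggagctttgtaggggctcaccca
The match to the STAT motif in the Reg3b promoter begins 129 bases before the start, and no such letters stand in this window of Reg3g. Of 33469 rat promoters of the same length, 8.87% held the STAT motif and 14.2% the TATA motif. The Reg1a promoter held a STAT match 242 bases before the start and a TATA match 29 bases before it, and the windows of Reg3a and Reg4 held neither motif. Aligned end to end, the promoters of Reg3b and Reg3g shared 195 of 300 bases, and those of Reg3b and Reg3a, a gene hardly above background here, shared 200, against 134 of 300 for Reg3b and Reg4.

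The probes of Reg3b and Reg4, shown here, are 60 bases long and lie in coding sequence, and their longest shared run was 9 bases.
Reg3b probe, chromosome 4: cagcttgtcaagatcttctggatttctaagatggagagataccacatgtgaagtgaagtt
Reg4 probe, chromosome 2: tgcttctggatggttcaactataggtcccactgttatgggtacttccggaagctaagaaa
Over all 10 pairs of the 5 probes, no shared run was longer than those 9 bases. Whether RNA of Reg3b-ps1 could bind the Reg3b probe was not tested.

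The 24 arrays covered 20 samples of rat and tissue, because a second array existed for rat 6 tumour and for normal colon from each of rats 2, 3 and 6. The labels do not say whether this was the same RNA or another piece of tissue, and the arrays of 1 sample were averaged before any test. On 21 arrays the sample channel was well above background for 47.6% to 70.5% of gene probes, while on the first array of rat 2 normal colon and the arrays of rat 4 normal colon and rat 9 tumour 86.9% to 95.2% were, so these 3 are called arrays with raised signal. Each group had 3 rats on the 4 slides scanned first and 2 rats on the 2 slides scanned last. All 12 colonic epithelial markers on the array, among them Cdx1, Epcam and Vil1, were above background on most arrays of every group. Normal colon of DSS rats also carried markers of squamous epithelium. Over 10 such genes the mean log2 level ran from 2.55 to 3.96 there, against 1.13 in the normal colon of untreated rat 8 and -0.55 to -0.25 in that of the other 4 untreated rats, and the part of this in the Reg values was not tested. In pieces of whole tissue, fewer cells of a type and less RNA per cell cannot be told apart.

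Reg3b, Reg3g and Reg4 were measurable in colon, and Reg3a and Reg1a hardly were. In the sample channel the probes for Reg3b and Reg4 passed the background flag on 24 of 24 arrays and the Reg3g probe on 22 of 24. Reg3a passed on 2 arrays, normal colon of DSS rat 5 and the second array of normal colon of DSS rat 6, with background-subtracted Cy3 signals of 47.2 and 48.0. Reg1a passed on 3 arrays, which were the 3 arrays with raised signal. The pool was no brighter for these 2 genes, with Cy5 well above background on 3 arrays for Reg3a and 3 for Reg1a. Their ratios therefore compare background with background, and no test is given for them. In tumours of untreated rats neither gene was well above background on any array, and the Reg3a spot in the tumour of DSS rat 1 lay below its local background and was left out.

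**Figure D1:**
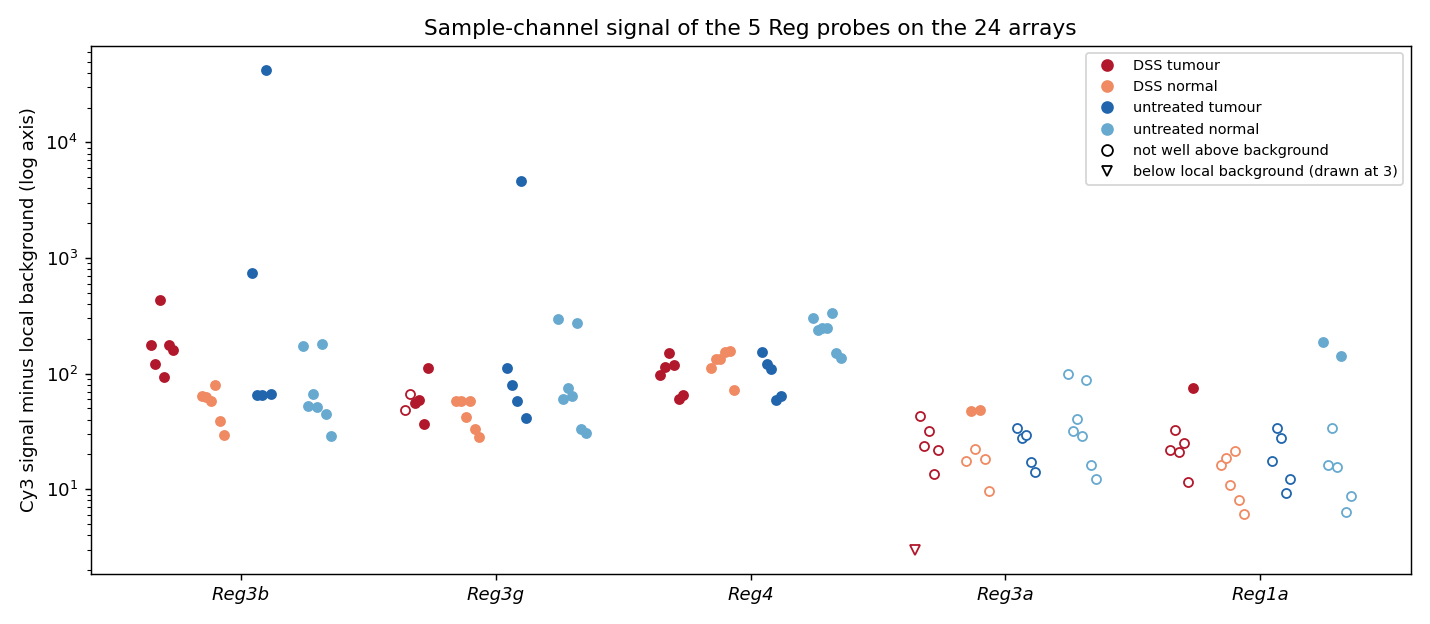
Background-subtracted Cy3 signal (log axis) of the 5 Reg probes on the 24 arrays, grouped by DSS tumour, DSS normal, untreated tumour and untreated normal colon, with open circles where the probe was not well above background. A single untreated tumour stands at 42407 for Reg3b and 4669 for Reg3g, while most Reg3a and Reg1a signals are open circles.

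Reg3b was the gene with the widest range. In tumours of DSS rats 1, 5, 6, 7 and 9 its log2 level was -3.01, -3.45, -3.03, -3.10 and -2.69, against -3.83, -3.90, -3.84, -4.64 and -4.49 in normal colon of the same rats. All 5 tumours of DSS rats lay above all 5 normal colons of DSS rats, and 4.65% of all features separated these groups in the same direction. In tumours of untreated rats 2, 3, 4, 8 and 10 the level was -1.47, -4.16, -3.99, 3.96 and -4.22, against -3.39, -4.36, -3.47, -4.52 and -4.44 in normal colon of the same rats. Rat 8 stood far above the other 4 tumours, rat 2 was the next highest, and the remaining 3 lay within the range of normal colon.

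The tumour of untreated rat 8 was the only sample in which Reg3b exceeded the pool. Its background-subtracted Cy3 signal was 42407, against 45.1 in normal colon of the same rat, and the next highest sample, the tumour of untreated rat 2, had 747. The log2 level lay 8.48 above the rat's own normal colon and 5.43 above the next highest sample. On the same array the pool channel of Reg3b read 5233, against 3157 to 3642 on the 7 other arrays scanned that day, and whether the bright sample channel had a part in this was not tested. There was 1 array for this tumour, so its level has no technical repeat.

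Reg3g, the antibacterial lectin best studied in mouse intestine, was high in the same tumour and in no other sample. In tumours of DSS rats 1, 5, 6, 7 and 9 its log2 level was -3.67, -3.72, -3.82, -4.16 and -2.71, against -3.16, -3.60, -3.65, -4.42 and -4.12 in normal colon. The highest of these, the tumour of rat 9, was one of the arrays with raised signal, and the groups overlapped. Tumours of untreated rats 2, 3, 4, 8 and 10 had -3.52, -3.65, -3.75, 1.53 and -4.34, against -3.04, -4.02, -2.998, -4.51 and -4.16 in normal colon. The tumour of rat 8 was 6.04 above its own normal colon, with a Cy3 signal of 4669 against 33.0, and the other 4 tumours lay within the range of normal colon of untreated rats. The top of that range came from normal colon of rats 4 (-2.998) and 2 (-3.04), each with an array with raised signal. On its other array normal colon of rat 2 read -3.73, below the tumours of rats 2 (-3.52) and 3 (-3.65).

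Reg4 levels lay close together within 3 of the groups, at SDs of 0.14 to 0.22, and were spread more widely in tumours of DSS rats, at 0.91. In tumours of DSS rats 1, 5, 6, 7 and 9 the log2 level was -4.77, -4.81, -4.86, -4.94 and -2.81, against -4.00, -4.43, -4.23, -4.24 and -4.39 in normal colon. These groups overlapped through the tumour of rat 9, the highest Reg4 value of all 20 samples. Its background-subtracted Cy3 signal was 65.4, against 58.7 to 63.5 in the other 3 tumours on the slides scanned last, and its pool channel read 2416, against a median of 5764 over the arrays of the slides scanned last. Tumours of untreated rats 2, 3, 4, 8 and 10 had -4.82, -4.75, -4.85, -5.01 and -5.08, against -3.66, -4.11, -4.10, -4.22 and -3.93 in normal colon. Every tumour of untreated rats lay below every normal colon of untreated rats, a separation that 8.46% of all features showed in the same direction. The tumour of rat 8, where Reg3b and Reg3g were highest, had an ordinary Reg4 level for a tumour.

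**Figure D2:**
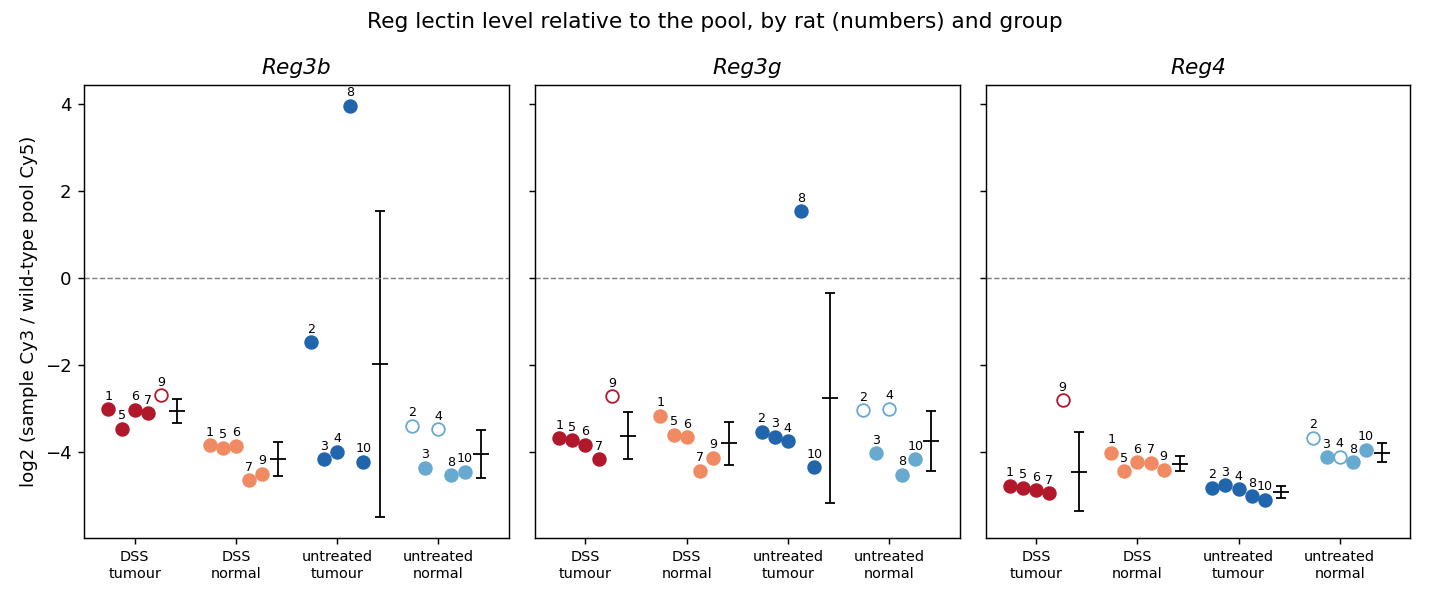
Log2 of the sample over the wild-type pool for Reg3b, Reg3g and Reg4 in each rat (number above the point), by group; the bar beside each group is its mean ± SD (n = 5), open circles hold an array with raised signal and the dashed line is the level of the pool. Apart from the tumour of untreated rat 8 for Reg3b and Reg3g, every point lies below the pool.

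By group mean, Reg3b stood in the order tumours of untreated rats (-1.98 ± 3.51), tumours of DSS rats (-3.06 ± 0.27), normal colon of untreated rats (-4.04 ± 0.56) and normal colon of DSS rats (-4.14 ± 0.39; SD, n = 5 each). Without rat 8 the tumours of untreated rats averaged -3.46 ± 1.33 (SD, n = 4), which put them below the tumours of DSS rats, so the first 2 places are not ordered beyond their spread; the last 2 did not differ beyond theirs either. Reg3g had the same order, at -2.74 ± 2.41, -3.62 ± 0.54, -3.75 ± 0.69 and -3.79 ± 0.49, and all neighbours differed by less than their spread. For Reg4 the order was normal colon of untreated rats (-4.01 ± 0.22), normal colon of DSS rats (-4.26 ± 0.17), tumours of DSS rats (-4.44 ± 0.91) and tumours of untreated rats (-4.90 ± 0.14). Neighbours in that order differed by less than the larger of their SDs, except for normal colon of DSS rats below normal colon of untreated rats (difference -0.25).

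All 3 measured members read far lower in these samples than in the wild-type pool. Among the 20 samples, only the tumour of rat 8 exceeded the pool, for Reg3b and Reg3g, and Reg4 never did. The mean for normal colon of untreated rats corresponded to 6.09% of the pool for Reg3b, 7.46% for Reg3g and 6.22% for Reg4. These shares are too high for dim probes, because an offset of 50 is added to both channels, and the deposited processed signals gave 2.54%, 3.78% and 5.23%. The pool was not of the same brightness throughout. Its Reg3b signal was 669 to 1722 on the slides scanned first and 3157 to 5233 on those scanned last, and its median over all gene probes of an array was 48.9 and 78.0 at the middle array of each set. Dye, age and the Apc genotype differ together between pool and samples and cannot be told apart. Dyes were not swapped, so a dye effect on a probe has the same place in every ratio. The labels do not give the part of the colon taken for the pool.

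The first comparison asks how tumours differ from normal colon in untreated Pirc rats. Reg4 was lower in tumours, by 0.89 on the log2 scale (SE 0.29, 95% interval -1.496 to -0.29; limma with Benjamini-Hochberg adjustment, adjusted p = 0.0304), which is 1.86-fold lower, and it was lower in 5 of 5 rats. Reg3b was 2.06 higher with an SE of 1.05 (interval -0.15 to 4.27, adjusted p = 0.188) and Reg3g 1.001 higher with an SE of 0.77 (adjusted p = 0.425), and neither passed the threshold of 0.05. Of 26876 features tested, 21.8% passed this threshold, 11.4% of all being lower in tumours, and 1 of the 3 members tested passed. Leaving out any 1 of the 5 untreated rats kept Reg4 at -0.96 to -0.83 but moved its adjusted p to between 0.0600 and 0.107. Over all 10 limma fits that each left out 1 rat, DSS rats included, its adjusted p ran from 1.71e-05 to 0.107. The spread behind the SE was shared by all 4 groups, and tumours of DSS rats had an SD of 0.91, against 0.14 to 0.22 in the others. Without rat 8 the Reg3b difference was 0.46 and that of Reg3g was -0.26. For Reg4 the value with rat as a block was -0.89 with an adjusted p of 0.0326.

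In DSS rats the same contrast gave Reg3b 1.09 higher in tumours (SE 1.05, adjusted p = 0.606), Reg3g 0.17 higher (SE 0.77, adjusted p = 0.931) and Reg4 0.18 lower (log2 change -0.18, SE 0.29, adjusted p = 0.783). None of the 3 passed, where 10.2% of all features did. Single samples bore on 2 of these values. The spread of Reg3b was shared with the untreated tumours, and when only the DSS tumours and DSS normal colons were fitted, a choice made after the values were seen, the change of 1.09 had an SE of 0.19 and an adjusted p of 0.00729. Reg4 without rat 9 was -0.62 with an adjusted p of 0.00314, and without the 3 arrays with raised signal it was -0.59 with an adjusted p of 0.00102.

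Since both tissues came from each rat, the difference within the rat is the closest comparison. Reg3b was higher in the tumour than in the normal colon of the same rat in 9 of 10 rats, with a mean difference of 1.57 and a median of 0.82; an exact paired permutation test over the 10 rats, two-sided, gave p = 0.0117. Without rat 8 the mean was 0.81, higher in 8 of 9 rats (exact p = 0.0234). The exception was rat 4, at -0.52, whose normal colon was on an array with raised signal. Arrays with raised signal also entered the differences of rat 9 (1.81) and rat 2 (1.91), which were among the 9. Reg4 was lower in the tumour in 9 of 10 rats, with a mean of -0.54 and a median of -0.72 (exact p = 0.0664), and the exception was rat 9 at 1.59, whose tumour was on an array with raised signal. Rat 4 (-0.74) and rat 2 (-1.15), also with such an array, were among the 9. Reg3g was higher in 4 rats and lower in 6, with a median of -0.15 (exact p = 0.531). These p-values are unadjusted and come from 21 exact tests, 7 on each of the 3 genes.

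**Figure D3:**
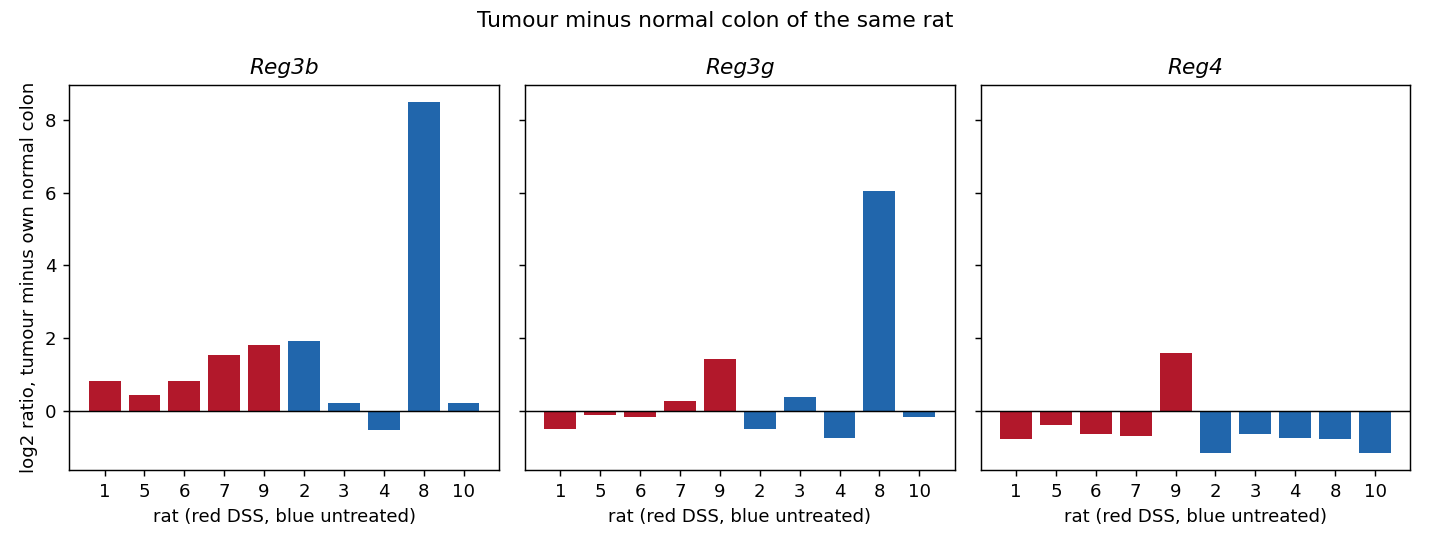
Difference in log2 level between the tumour and the normal colon of the same rat for Reg3b, Reg3g and Reg4, with DSS rats in red left of untreated rats in blue. Reg3b bars point up in 9 of 10 rats and reach 8.48 in rat 8, Reg3g bars point both ways, and Reg4 bars point down in 9 of 10 rats.

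The next question is whether DSS, given weeks before sampling, left a trace in the Reg genes. In normal colon the change in DSS rats against untreated rats was -0.11 for Reg3b (SE 1.05, adjusted p = 0.967), -0.05 for Reg3g (SE 0.77, adjusted p = 0.982) and -0.25 for Reg4 (SE 0.29, adjusted p = 0.659). None of the 3 passed, while 9.71% of all features did. The 95% intervals were -2.31 to 2.10 for Reg3b, -1.65 to 1.56 for Reg3g and -0.85 to 0.35 for Reg4, with a spread shared with the tumours. Fitting only the 2 groups of normal colon narrowed the SE of Reg3b to 0.27 at the same change of -0.11 (adjusted p = 0.853).

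In tumours the change in DSS rats against untreated rats was -1.08 for Reg3b (SE 1.05, adjusted p = 0.971), -0.87 for Reg3g (SE 0.77, adjusted p = 0.956) and 0.46 for Reg4 (SE 0.29, adjusted p = 0.867). No member passed, and of all features 0% did by limma, with 1954 at an unadjusted p under 0.05. Each of these 3 values rested on 1 tumour. Without rat 8 Reg3b was 0.40 and Reg3g 0.20, and without rat 9 Reg4 was 0.05. The spread among tumours differed between the groups for Reg3b, at an SD of 0.27 in tumours of DSS rats and 3.51 in tumours of untreated rats, or 1.33 without rat 8.

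The difference between the 2 DSS effects, in tumours minus in normal colon, was -0.98 for Reg3b (SE 1.49, adjusted p = 0.806), -0.83 for Reg3g (SE 1.09, adjusted p = 0.771) and 0.72 for Reg4 (SE 0.41, adjusted p = 0.403). None passed, against 4.03% of all features. Reg3b without rat 8 gave 0.63 and Reg4 without rat 9 gave 0.27.

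**Figure D4:**
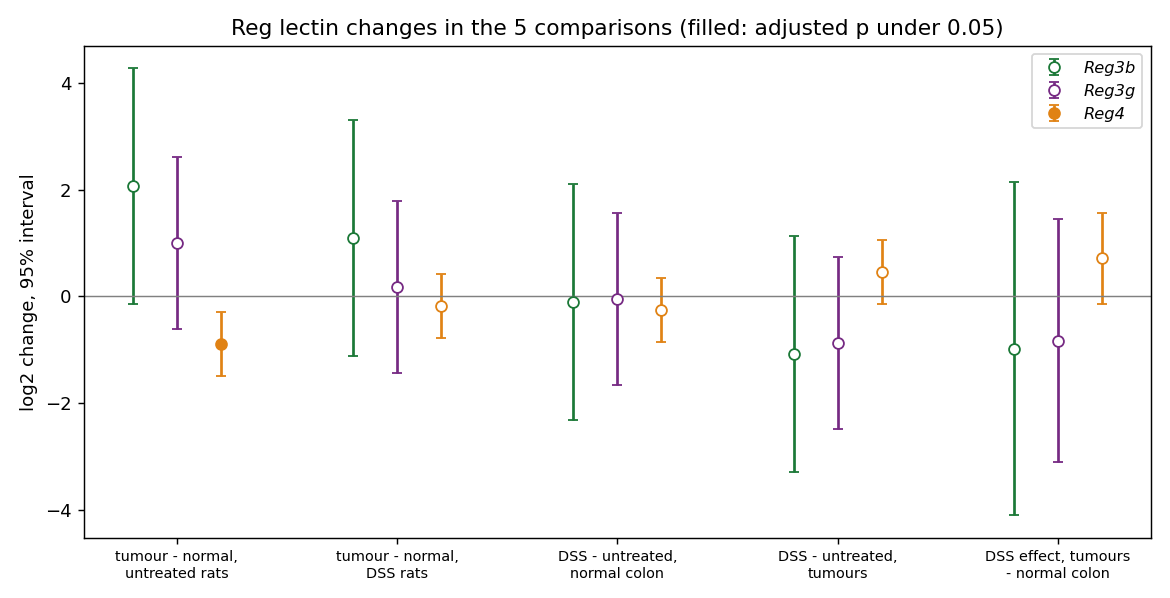
Log2 change of Reg3b, Reg3g and Reg4 with its 95% interval in the 5 comparisons, fitted to all 20 samples (5 rats a group), with filled points where the adjusted p was under 0.05. The single filled point is Reg4 in tumours against normal colon of untreated rats, at -0.89.

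Upstream of Reg3b and Reg3g, the list of IL-22, IL-6 and IL-17 ligands, receptors and STAT3 signalling had 17 of its 23 genes tested. In tumours against normal colon of untreated rats 4 were higher and none lower, which is 23.5% of the 17 and close to the 21.8% of all features that passed, with a median log2 change of 0.08 beside 0.00 over all features. The 4 were Osmr, the oncostatin M receptor (0.69 ± 0.13), Il6r, the IL-6 receptor (0.93 ± 0.20), the kinase Jak2 (0.54 ± 0.12; log2 change ± SE) and Socs3, a STAT3 target that damps the pathway (0.34 ± 0.11, adjusted p = 0.0251). In DSS rats 1 gene was higher in tumours, Jak2 at 0.49 ± 0.12, which is 5.88% of the list beside 10.2% of all features. Normal colon of DSS rats was higher than normal colon of untreated rats for 3 of the genes, Il6r (1.11 ± 0.20), Socs3 (0.53 ± 0.11) and Osmr (0.47 ± 0.13), while Reg3b and Reg3g changed by -0.11 and -0.05 there. Stat3 itself changed by 0.08 ± 0.19 in tumours of untreated rats and Il6 by 0.12 ± 0.08, and neither passed. Il22 had no feature tested.

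The tumour of rat 8 did not stand out in the mean of that list. Its mean over the 17 genes was 0.22, against 0.09 to 0.33 in the other 4 tumours of untreated rats. Its Socs3 level was 0.16, against 0.14 to 0.56, while its Stat3 level was above the others, at 0.90 against 0.43 to 0.84. Over 10 genes of bacterial sensing it had 0.30, below the 0.34 to 0.57 of the other 4. For 11 inducible genes of epithelial defence, a list that holds Lcn2, Nos2 and Dmbt1, it had 0.22 against 0.07 to 0.58. Within that list Nos2 (2.34 against 0.87 to 2.12) and the kinase Pim1 (1.07 against -0.16 to 0.82) were above the other 4. Dmbt1 was below them (-4.96 against -4.92 to -1.88). Neutrophil genes were at 1.38 over 11 genes, above the 0.77 to 1.30 of the others, and 4 Paneth cell genes were at 1.92 against 0.59 to 1.77. Acinar genes of the pancreas, the organ where Reg genes are best known, were at -0.15 over 10 genes against -0.19 to -0.06, and only 8 of 18 on the array were above background on most arrays of untreated tumours. Enteroendocrine genes, at -1.80 over 10 genes, were below the -1.44 to -1.01 of the other 4 tumours, and 8 goblet and deep crypt secretory genes, at -1.44, were below their -1.23 to -0.52. The nearest values of Stat3 (0.84), Pim1 (0.82), Dmbt1 (-4.92) and the Paneth cell genes (1.77) were those of rat 10. That was the other untreated tumour on the slides scanned last, and its Reg3b level was -4.22. For Nos2 and the neutrophil genes the nearest was rat 4. The part of these genes, lists and slides in the Reg3b and Reg3g levels was not tested.

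**Figure D5:**
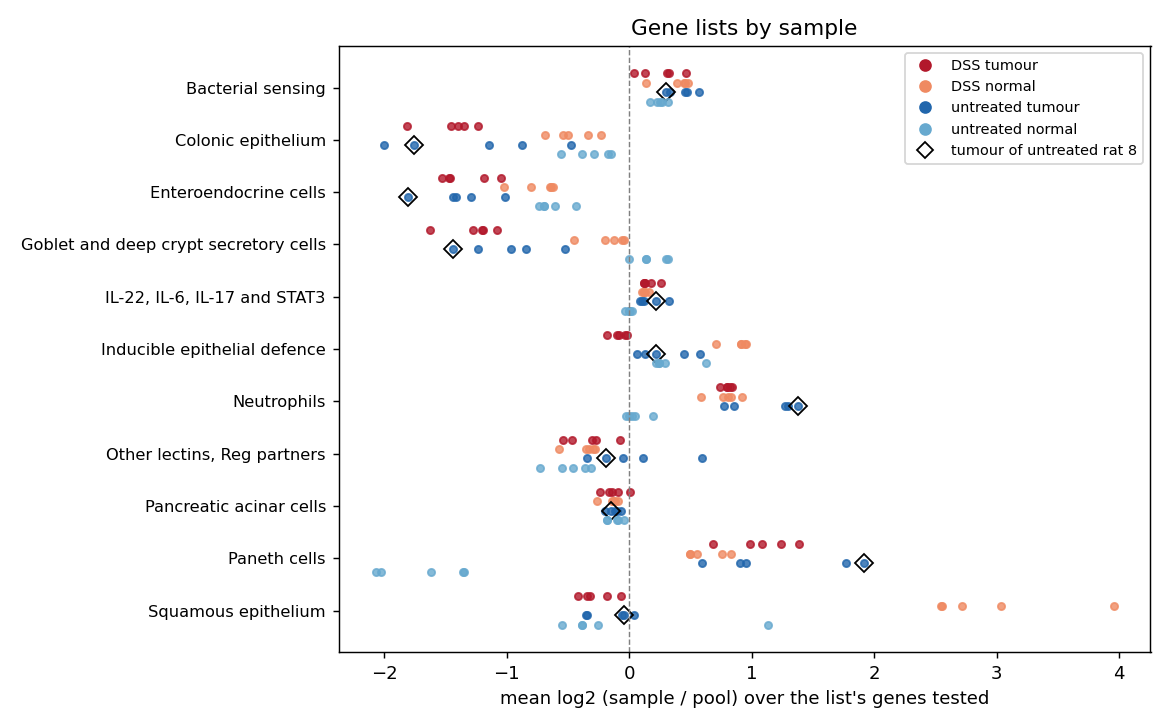
Mean log2 level over the tested genes of each list in every sample, coloured by group, with a diamond at the tumour of untreated rat 8. The diamond lies inside the range of the other 4 untreated tumours in 6 of the 11 lists and outside it for bacterial sensing, enteroendocrine, goblet, Paneth and neutrophil genes.

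Among the inducible defence genes, 2 of 11 were higher and 3 lower in tumours of untreated rats, with a median change of 0.06. The share passing was 45.5%, beside 21.8% of all features. The secreted phospholipase Pla2g2a rose by 1.94 ± 0.31 and the nitric oxide synthase Nos2 by 1.29 ± 0.25, while the membrane mucin Muc1 fell by 1.79 on the log2 scale (SE 0.22). In DSS rats none was higher and 5 were lower in tumours, with a median of -0.74, among them Ido1 at -2.46 ± 0.25 and Dmbt1, a scavenger receptor of mucosal surfaces, at -2.86 ± 0.54. That was again 45.5% of the list, beside 10.2% of all features. Lcn2, an iron-withholding protein often induced beside Reg3 genes, changed by 0.06 ± 0.10 in untreated rats and by -0.09 ± 0.10 in DSS rats and did not pass. Among bacterial sensors, 1 of 10 rose in tumours of untreated rats, Tlr2 at 2.27 ± 0.27, which is 10% beside 21.8% of all features. None passed in DSS rats, beside 10.2% of all features.

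Of 8 other intestinal lectins and reported Reg partners, 2 were higher and 1 lower in tumours of untreated rats, and 4 were higher and 1 lower in tumours of DSS rats. These are 37.5% and 62.5% of the list, beside 21.8% and 10.2% of all features. The goblet cell lectin Zg16 was lower in tumours of both kinds of rat, at -2.51 ± 0.39 in untreated rats and -2.17 ± 0.39 in DSS rats. Cd44, a surface receptor reported to act with Reg proteins, was 4.90 ± 0.24 higher in tumours of untreated rats and 1.56 ± 0.24 higher in tumours of DSS rats. The galectin Lgals2 was 1.42 ± 0.29 and 1.08 ± 0.29 higher. Extl3, the proposed receptor, changed by 0.04 ± 0.09 in untreated rats, which did not pass, and by 0.30 ± 0.09 in DSS rats (adjusted p = 0.0361).

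Some markers of the cell types that make Reg4 in mice were lower in tumours. Of 10 enteroendocrine genes, 7 were lower and 2 higher in tumours of untreated rats, with a median of -1.22 beside 0.00 over all features, and 4 were lower and 2 higher in tumours of DSS rats, with a median of -0.58 beside 0.01. The shares passing were 90% and 60%, beside 21.8% and 10.2% of all features. The peptide hormone Pyy was at -2.46 ± 0.30 in untreated rats and -1.75 ± 0.30 in DSS rats, and the granule protein Chga at -2.05 ± 0.26 and -1.18 ± 0.26, while the hormone Sct was 2.35 ± 0.20 higher in untreated rats. Of 8 goblet and deep crypt secretory genes, 4 (50%) were lower and none higher in each kind of rat, with medians of -1.13 and -0.91. The trefoil peptide Tff3 was at -2.25 ± 0.29 in untreated rats and -2.39 ± 0.29 in DSS rats. The Reg4 change of -0.89 in untreated rats was smaller than both list medians in the main setting. Over alternative settings it ran from -1.37 to -0.61, and the list medians were not computed there. Reg4 is a dim probe, so the size of its change depends on the processing. Colonic epithelial genes in general were lower as well, 5 of 12 (41.7%) in each kind of rat with medians of -0.37 and -0.50. The part of any of these lists in the Reg4 value was not tested.

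Likeness was measured as Pearson's r of log2 levels over the 20 samples, against 12462 other genes with a symbol, as a description with no test. The gene most like Reg3b was Reg3g, at 0.93, followed by Uox, the urate-degrading enzyme urate oxidase, at 0.92. For Reg3g the order was Reg3b at 0.93 and Uox at 0.88. These values share the tumour of rat 8. Without it Reg3b and Reg3g correlated at 0.54, Reg3b and Uox at 0.28, and Reg3g and Uox at -0.31. Uox stood at 2.87 in that tumour, against -0.08 to 0.35 in the other 19 samples. After group means were removed, Reg3g and Uox again led for Reg3b, at 0.94 and 0.91, followed by Syne4 at 0.82. Without the tumour of rat 8, and with group means kept, Reg3b and Syne4 correlated at 0.64.

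The genes most like Reg4 were Il3ra, a subunit of the IL-3 receptor, at 0.91, Ppip5k1, an inositol phosphate kinase, at 0.89 and the histone deacetylase Hdac4 at 0.87. Over the 17 samples that held no array with raised signal these were 0.79, 0.77 and 0.64. After removal of group means Hdac4, Ppip5k1 and Stmn2 were closest, at 0.94, 0.91 and 0.88. With group means kept, Stmn2 stood at 0.54 over the 17 samples that held no array with raised signal. Reg4 did not follow Reg3b, at -0.25 over the 20 samples and -0.04 without the tumour of rat 8. With Reg3g it stood at -0.04 over the 20 samples and at 0.53 without that tumour, close to the 0.54 of Reg3b and Reg3g. The highest Reg3g levels then left were the tumour of rat 9 (-2.71) and normal colon of rats 4 (-2.998) and 2 (-3.04). Each held an array with raised signal. The tumour of rat 9 (-2.81) and normal colon of rat 2 (-3.66) were also the highest for Reg4. The part of these arrays in the 0.53 was not tested.

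The 4 samples with a second array show how well a level was measured. In the tumour of DSS rat 6, Reg3b was -2.37 on the first array and -3.68 on the second, a gap wider than that of 99.9% of features, while Reg4 was -4.84 and -4.89. With either array alone the Reg3b level of this tumour stayed above the -3.84 mean of the normal colon of the same rat. In normal colon of untreated rat 2, whose first array had raised signal, Reg3b was -2.75 and -4.02 and Reg3g -2.34 and -3.73. In normal colon of rats 3 and 6 the 2 arrays differed by 0.08 to 0.23 for the 3 members.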

How the data were processed

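RNA of 20 samples was read on 24 two-colour arrays as mean signals and local backgrounds, deposited by the authors as intensity; per the file headers the software was Feature Extraction 9.1.3.1. Each spot's deposited log10 ratio is Cy5 over Cy3 processed signal and was recomputed within 0.01 for 75.1% to 98.9% of gene spots. The deposited flags gave spots above background. Dyes were not swapped, so a dye effect on a probe stays in every ratio. The submitters' processing notes also name Partek, without saying what for. The members and lists were chosen with earlier results of these data known.

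In R 4.3.3 with limma 3.58.1, mean signals were corrected by normexp (offset 50), and loess within arrays normalized the log2 ratio of Cy3 to Cy5. Up to 31 of 45018 spots per array, whose background exceeded the signal by more than 20, were left out of the normexp fit and of the array's values; this was decided after the deposited processed signals were seen, since with them the fitted background mean fell to -548 on 1 of 5 affected arrays and lifted every dim probe there. A probe needed a Cy3 signal well above background on at least 5 arrays, and the brightest probe stood for a gene, giving 26876 features. Second arrays were averaged first. limma fitted 1 mean per group to 20 samples (16 residual and 2.60 prior degrees of freedom), with two-sided tests and Benjamini-Hochberg adjustment over all features at 0.05. The fit was tested on simulated data. Tumour and normal colon of a rat deviated together from their group means, with correlations across features of 0.278 to 0.592 in 10 rats. The pairing was set by rat, and each tumour also shared a slide with normal colon of the same rat. Animal and slide therefore cannot be told apart in these correlations. With rat as a block, 4605 features passed in tumours against normal colon of DSS rats and 2372 for the difference between DSS effects, against 2739 and 1083 without it. Labels call the animals separate rats, and the number of arrays limits the precision. Named genes were the members, the 3 genes most like each by Pearson's r (1 of them is not reported here), and from each of 11 lists the 3 members past the threshold with the smallest p; Il22, Il6, Stat3, Socs3, Extl3 and Lcn2 were always eligible. Probe names came from accession (10835), current symbol (5196) or older name (3478), and 21503 kept the file's name.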

Additional observations from a re-analysis of the deposited data

Results flagged for a closer look

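In tumours of untreated rats the Reg3g level of rat 8, 1.53 on the log2 scale, stood apart from the other 4, of which the nearest was -3.52. The gap was 0.861 of the whole range, past Dixon's critical value of 0.710 for 5 samples. The Reg3b level of the same tumour, 3.96, did not pass this limit because rat 2, at -1.47, narrowed the gap to the nearest value. In tumours of DSS rats the Reg4 level of rat 9, -2.81, stood apart, with -4.77 nearest and a gap of 0.920 of the range; its array was one of the 3 with raised signal. Over the 20 groups examined, 4 for each of the 5 genes, 2 such samples were found, and chance flags about 1 in 20 groups. The groups shared samples and arrays, and those of Reg3a and Reg1a were near background. The number found is therefore not compared with chance.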

How the results depend on the processing

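Of 381 alternative values of the 3 tested members, 336 kept direction and side of the threshold, 32 changed sign with none past the threshold, 8 lost the threshold and 5 gained it; the cause was not tested. Reg4 in tumours against normal colon of untreated rats stayed between -1.37 and -0.61 and lost the threshold within the slides scanned last (-0.97), with median centring (-0.87), with normexp on all spots (-0.97) and, over the fits that each left out 1 rat (-0.96 to -0.83), without any of the 5 untreated rats. In DSS rats Reg4 passed within the slides scanned first (-0.59), in the sample channel alone (-0.66), without the 3 arrays with raised signal (-0.59) and at the low end of leaving out rats (-0.62 to -0.03), and turned within the slides scanned last (0.45), with median centring (0.18) and with normexp on all spots (0.00). Reg3b in DSS rats passed when the 2 compared groups were fitted alone (1.09).

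Within the slides scanned first, where rat 8 was absent, the sign turned for Reg3b under DSS in tumours (0.04) and in the difference between DSS effects (0.16), for Reg3g in tumours of untreated (-0.29) and DSS rats (-0.27) and in the difference between effects (0.02), and for Reg4 under DSS in tumours (-0.01). Under DSS in normal colon it turned for Reg3b in the sample channel alone (0.24), with second arrays (0.02) and without the 3 arrays (0.20), and for Reg3g within the slides scanned last (0.06), with second arrays (0.07) and without the 3 arrays (0.31). In the sample channel alone Reg3g in tumours of DSS rats was -0.07 (-0.05 without the 3 arrays), Reg4 under DSS in tumours -0.22 and its difference between effects -0.05. Leaving out 1 rat gave, for Reg3b, -0.23 to 0.06 under DSS in normal colon, -1.64 to 0.40 under DSS in tumours and -1.62 to 0.63 for the difference between effects. For Reg3g it gave -0.26 to 1.44 in tumours of untreated rats, -0.13 to 0.35 in tumours of DSS rats, -0.24 to 0.14 under DSS in normal colon, -1.27 to 0.20 under DSS in tumours and -1.26 to 0.43 for the difference. The replicate block changed no member's call, with Reg4 in untreated rats at -0.89.

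Features past the threshold numbered 5850 in tumours of untreated rats, 2739 in tumours of DSS rats, 2609 under DSS in normal colon, 0 under DSS in tumours and 1083 for the difference. With the slide set as a block the last 4 were 4333, 4633, 82 and 1947, and with slide as a block 4281, 4794, 41 and 1852. The replicate block gave 4605 in tumours of DSS rats and 2372 for the difference. Within the slides scanned first DSS in normal colon gave 5088, and within those scanned last the counts were 2721, 239, 3 and, for the difference, 2. Median centring gave 1725, 836, 660 and, for the difference, 285, with 57.3%, 56.6%, 72.9% and 15.1% of calls higher against 47.7%, 48.6%, 49.5% and 38.5%. The difference had 670 with normexp on all spots and 711 without the 3 arrays, where DSS in tumours had 2; the sample channel alone gave 13 for DSS in tumours. Leaving out 1 rat gave 1507 to 2839 in tumours of DSS rats, 610 to 1190 for the difference and 0 to 4 for DSS in tumours. For the list genes named by rule, 1942 of 2098 alternative values kept their call and 156 lost it, 49 of these within the slides scanned last and 25 with median centring. Dim signals limit every member, apart from Reg3b and Reg3g in the tumour of rat 8.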
